A study of Mus musculus with 9 samples.

Results

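The genes followed here changed strongly when the linear Slc45a4 mRNA was knocked down in the embryonic mouse cortex. They are Mat2b, Ube3b, Igsf11, Anxa5, Zfp580, Thsd7a, Prokr2, Polr2b, Hs2st1 and Rasa4, 10 of 53379 gene IDs in the deposited count table. Each symbol matched 1 row, and all 10 passed the filter on low counts that left 17760 genes. They were chosen by their measured counts in the Slc45a4 mRNA knockdown against scramble, so their values in that comparison are given as a description, with no test. The comparison left to test is whether knockdown of circSlc45a4, a circular RNA named after the same gene, moved them. It uses the same scramble libraries that took part in the choice.

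All libraries came from GFP+ cells of the embryonic cortex of C57BL/6 mice. Plasmids for short hairpin RNAs were brought in by in utero electroporation at E13.5. Cells were taken by FACS at E15.5, 48 hours later, and their polyA RNA was sequenced, a selection that leaves circular RNA unmeasured. The Slc45a4 mRNA knockdown (mRNA knockdown) received a mix of 2 hairpins against the linear transcript, the circSlc45a4 knockdown (circ knockdown) received a mix of 3 hairpins against the circular one, and scramble received 1 scrambled sequence. Each group held 3 biological replicates. No group was left without a hairpin. The number of embryos behind a library is not given here.

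The genes serve distant parts of cell biology. Mat2b encodes the regulatory subunit of the enzyme that makes S-adenosylmethionine, the methyl donor for DNA, RNA and histone methylation. Ube3b encodes a ubiquitin ligase of the HECT family, whose loss in humans causes a syndrome with intellectual disability. Polr2b encodes the second largest subunit of RNA polymerase II, and Zfp580 a C2H2 zinc finger protein. At the cell surface, Igsf11 is an immunoglobulin adhesion molecule that binds the scaffold PSD-95 and AMPA receptors at synapses. Hs2st1 adds sulfate to the uronic acids of heparan sulfate, the glycan that holds growth factors such as FGFs at the membrane, and Thsd7a is a membrane protein with thrombospondin repeats. In signalling, Prokr2 is the receptor for prokineticins, which guide neuroblasts to the olfactory bulb, Rasa4 (CAPRI) turns Ras off after a calcium signal, and Anxa5 binds phosphatidylserine in the presence of calcium.

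Total counts were 35307378 to 37051161 after mRNA knockdown, 36883510 to 45469298 after circ knockdown and 21073174 to 31833779 in scramble. Levels are given as CPM, counts scaled to a common library size with TMM factors. The targeted Slc45a4 transcript averaged 16.4 ± 2.77 CPM after mRNA knockdown, 25.1 ± 0.380 CPM after circ knockdown and 33.0 ± 1.41 CPM in scramble (SD, n = 3 each). Against scramble its log2 fold change was -1.01 ± 0.12 after mRNA knockdown (SE, edgeR adjusted p = 1.08e-04) and -0.39 ± 0.12 after circ knockdown (adjusted p = 0.0245). The second call was lost with Xist as a covariate, without any 1 of the circ knockdown replicates, and without scramble replicate 2 or 3. Xist, which coats the silenced X chromosome of females, differed between libraries. Its level was 1550, 637 and 0.194 CPM after mRNA knockdown, 264 to 635 CPM after circ knockdown and 0.0617 to 0.239 CPM in scramble. Of 11 marker lists, those of cortical cells were read in every library (10 genes of newborn and projection neurons summed to 5309 to 5876 CPM after mRNA knockdown, 5816 to 6073 CPM after circ knockdown and 6095 to 7156 CPM in scramble). Of these 10 neuronal genes 2 were higher after mRNA knockdown (Fezf2 at 0.75 and Map2 at 0.27) and 3 lower (Stmn2 at -0.98, Dcx at -0.58 and Tubb3 at -0.45). After circ knockdown 2 of them were higher and 2 lower. Over all genes 8.92% were called higher and 9.09% lower after mRNA knockdown, and 14.1% higher and 13.0% lower after circ knockdown, the shares against which these lists are read. Apical progenitor genes were higher for 4 of 10 after mRNA knockdown (beside 8.92%) and 6 of 10 after circ knockdown (beside 14.1%), and the list summed to 919 to 1183 CPM after mRNA knockdown, 1389 to 1526 CPM after circ knockdown and 837 to 1094 CPM in scramble. Interferon genes were higher for 4 of 10 after mRNA knockdown (beside 8.92%), and none was called after circ knockdown. The list summed to 18.4 to 79.3 CPM after mRNA knockdown, 8.38 to 40.6 CPM after circ knockdown and 9.42 to 14.8 CPM in scramble. The 4 called genes were highest in replicate 1 of each knockdown. Isg15, for example, stood at 7.93, 1.38 and 0.775 CPM after mRNA knockdown and 3.33, 0.383 and 0.0447 CPM after circ knockdown. Markers of endothelial cells, pericytes, meningeal fibroblasts, erythroid cells, microglia and ventral inhibitory neurons summed to under 23 CPM per list in every library. No gene of these lists was called after mRNA knockdown. After circ knockdown 3 of 5 tested ventral inhibitory genes were lower (beside 13.0%). In the same comparison 2 of 7 tested microglial genes and 1 of 3 tested pericyte genes were higher (beside 14.1%). Cajal-Retzius markers summed to 13.8 to 23.4 CPM after mRNA knockdown, 74.0 to 250 CPM after circ knockdown and 21.8 to 57.2 CPM in scramble. Reln alone made up most of this sum (244, 137 and 70.2 CPM after circ knockdown). Ndnf was also called higher after circ knockdown, while Trp73 and Lhx1 were not called. Of 6 basal progenitor genes 2 were lower after mRNA knockdown (beside 9.09%) and 3 after circ knockdown (beside 13.0%). What part these cell types and interferon genes have in the changes below was not tested. In sorted bulk cells, fewer cells of a type and less RNA per cell cannot be told apart.

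The 10 were not simply the largest changes. Among the 17760 genes their changes after mRNA knockdown ranked between 57 (Igsf11) and 706 (Polr2b) by size and between 3 (Mat2b) and 1088 (Rasa4) by p. Of them 4 (Mat2b, Ube3b, Polr2b and Hs2st1) were among the first 10 by p. Of the 10, 7 were lower and 3 higher than in scramble, where 9.09% and 8.92% of all genes were called lower and higher.

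**Figure D1:**
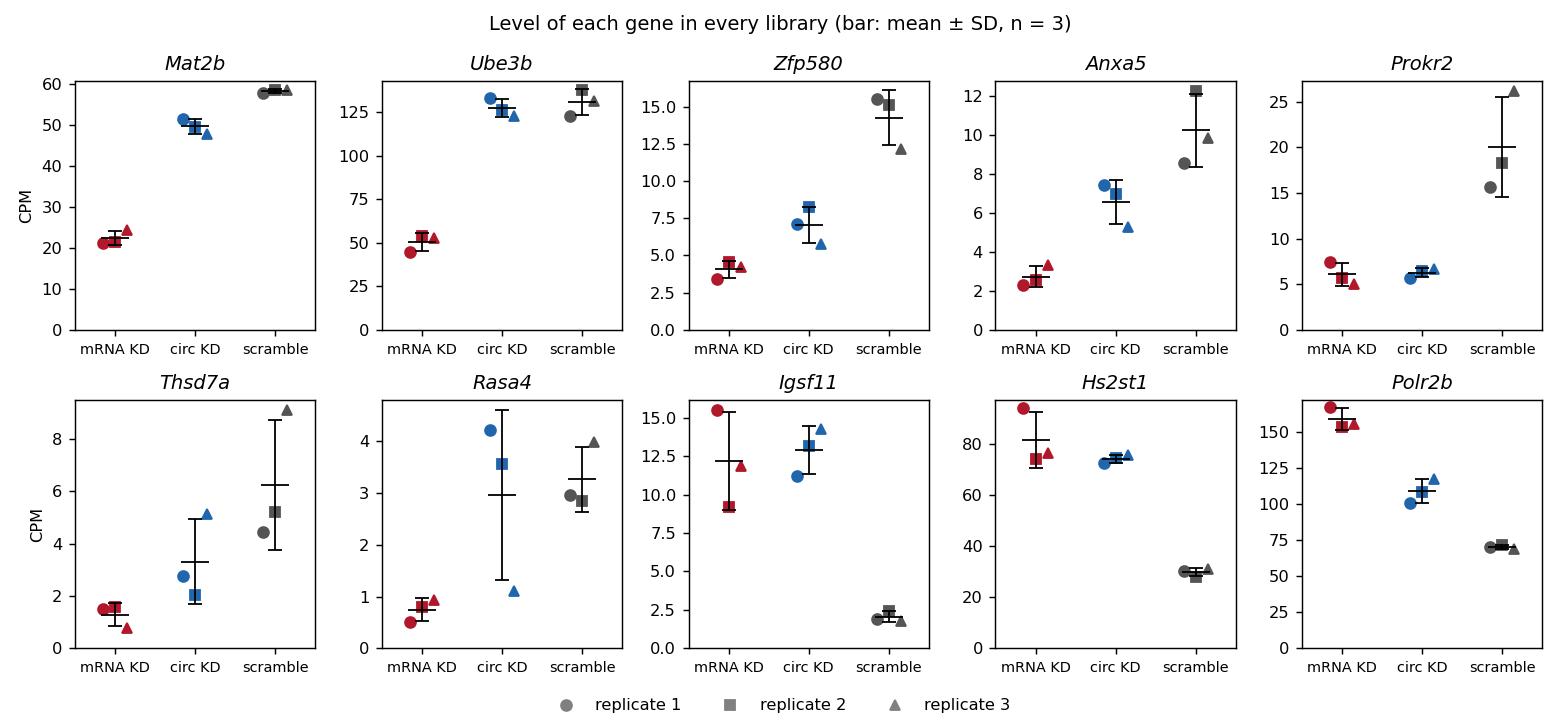
Each panel plots 1 gene, with its level in CPM on the y axis and the Slc45a4 mRNA knockdown (mRNA KD), the circSlc45a4 knockdown (circ KD) and scramble on the x axis. Symbols are the 3 libraries of a group and bars are mean ± SD. Ube3b after circ knockdown (123 to 133 CPM) lies at the level of scramble, whereas Hs2st1 (72.7 to 75.7 CPM) lies far above the 28.1 to 31.1 CPM of scramble.

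Mat2b and Ube3b, of methyl donor supply and ubiquitin transfer, were both low after mRNA knockdown and near scramble after circ knockdown. Mat2b (ENSMUSG00000042032.13, chromosome 11, 40679314 to 40695203, minus strand, GRCm38) stood at 21.2, 21.4 and 24.5 CPM after mRNA knockdown, at 51.5, 49.4 and 47.8 CPM after circ knockdown, and at 57.6, 58.5 and 58.5 CPM in scramble. The 3 groups did not overlap, and the circ knockdown lay close to scramble. After mRNA knockdown Mat2b was at 38.4% of scramble, a log2 fold change of -1.38 ± 0.09 (SE). After circ knockdown its log2 fold change was -0.23 (95% interval -0.41 to -0.05), which did not pass the threshold in the edgeR quasi-likelihood test (adjusted p = 0.0572). It did pass with limma-voom, with DESeq2, with upper-quartile factors, with the filter of 1 CPM, with only the 6 libraries compared and without mRNA knockdown replicate 1, at -0.29 to -0.23. The adjusted p ran from 0.0205 to 0.873 over 18 alternatives.

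Ube3b (ENSMUSG00000029577.13, chromosome 5, 114380607 to 114421169, plus strand) stood at 44.6, 54.0 and 52.6 CPM after mRNA knockdown, at 133, 127 and 123 CPM after circ knockdown, and at 123, 138 and 132 CPM in scramble. The circ knockdown and scramble overlapped, and all 3 Slc45a4 mRNA knockdown libraries were far below both. The level after mRNA knockdown was 38.5% of scramble (log2 fold change -1.38 ± 0.09). After circ knockdown the log2 fold change was -0.04 (95% interval -0.22 to 0.15, edgeR adjusted p = 0.793), and no alternative brought a call (adjusted p 0.456 to 0.973).

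Of the 2 genes of transcription, 1 was higher and 1 lower. Polr2b (ENSMUSG00000029250.5, chromosome 5, 77310147 to 77349324, plus strand) stood at 168, 153 and 156 CPM after mRNA knockdown, at 101, 109 and 117 CPM after circ knockdown, and at 70.1, 71.3 and 68.6 CPM in scramble. The groups formed 3 separate steps, with the circSlc45a4 knockdown in the middle. Its log2 fold change was 1.18 ± 0.08 after mRNA knockdown. It was 0.64 after circ knockdown (95% interval 0.47 to 0.81, edgeR adjusted p = 6.25e-05), where Polr2b rose in 3 of 3 libraries and kept its call under all 18 alternatives (2.51e-12 to 0.0234).

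Zfp580 (ENSMUSG00000055633.6, chromosome 7, 5051538 to 5053723, plus strand) stood at 3.43, 4.53 and 4.24 CPM after mRNA knockdown, at 7.11, 8.25 and 5.79 CPM after circ knockdown, and at 15.49, 15.1 and 12.2 CPM in scramble. It formed 3 steps in the opposite direction, without overlap. The log2 fold change was -1.81 ± 0.18 after mRNA knockdown. After circ knockdown it fell in 3 of 3 libraries, with a log2 fold change of -1.02 (95% interval -1.38 to -0.65, edgeR adjusted p = 7.15e-04). The call was lost with Xist as a covariate (-0.91, adjusted p = 0.114) and kept under the other 17 alternatives, the adjusted p running from 2.30e-07 to 0.114. Ccdc106 overlaps Zfp580 on the same strand, and how reads in the shared stretch were assigned is not given in the sources used here.

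At the cell surface, Igsf11 had the largest change of the 10 in both knockdowns. Igsf11 (ENSMUSG00000022790.14, chromosome 16, 38892671 to 39027159, plus strand) stood at 15.49, 9.17 and 11.9 CPM after mRNA knockdown, at 11.2, 13.1 and 14.3 CPM after circ knockdown, and at 1.91, 2.46 and 1.79 CPM in scramble. The knockdowns overlapped each other, all well above scramble, where it was read with 40 to 76 counts a library. Its log2 fold change was 2.56 ± 0.21 after mRNA knockdown. After circ knockdown it rose in 3 of 3 libraries, by 2.64 (95% interval 2.18 to 3.10, edgeR adjusted p = 2.91e-06), and the call held under all 18 alternatives (adjusted p at most 0.00112).

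Hs2st1 (ENSMUSG00000040151.9, chromosome 3, 144429706 to 144570181, minus strand) stood at 94.1, 74.0 and 76.6 CPM after mRNA knockdown, at 72.7, 74.6 and 75.7 CPM after circ knockdown, and at 30.2, 28.1 and 31.1 CPM in scramble. Replicate 1 of the Slc45a4 mRNA knockdown was the highest library, and the other 5 knockdown libraries lay within 4 CPM of each other. Against scramble the log2 fold change was 1.45 ± 0.10 after mRNA knockdown. After circ knockdown Hs2st1 rose in 3 of 3 libraries, by 1.32 (95% interval 1.11 to 1.53, edgeR adjusted p = 1.51e-06), and the call held under all 18 alternatives (adjusted p at most 0.00137).

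Thsd7a (ENSMUSG00000032625.14, chromosome 6, 12311610 to 12749410, minus strand) was a low and variable transcript. It stood at 1.51, 1.59 and 0.775 CPM after mRNA knockdown, at 2.75, 2.05 and 5.14 CPM after circ knockdown, and at 4.45, 5.22 and 9.08 CPM in scramble. Replicate 3 of the circ knockdown lay within the scramble range, while replicates 1 and 2 lay below it. Its fitted log2 fold change was -2.28 ± 0.39 after mRNA knockdown. After circ knockdown it was -0.92 (95% interval -1.69 to -0.14, edgeR adjusted p = 0.0767), short of the threshold. It passed without circ knockdown replicate 3 (-1.38, adjusted p = 0.0158), and with DESeq2, limma-voom and no filter. The adjusted p was 0.00169 to 0.344 over the alternatives.

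Among the signalling genes, Prokr2 was low after both knockdowns. Prokr2 (ENSMUSG00000050558.13, chromosome 2, 132337733 to 132385447, minus strand) stood at 7.48, 5.74 and 5.04 CPM after mRNA knockdown, at 5.68, 6.48 and 6.66 CPM after circ knockdown, and at 15.7, 18.3 and 26.2 CPM in scramble. The knockdowns overlapped each other, and each library was below every scramble library. Prokr2 was at 30.3% of scramble after mRNA knockdown, a log2 fold change of -1.72 ± 0.20. After circ knockdown Prokr2 fell in 3 of 3 libraries, with -1.68 (95% interval -2.11 to -1.26, edgeR adjusted p = 4.65e-05) and a call under all 18 alternatives (adjusted p at most 0.00523).

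Anxa5 (ENSMUSG00000027712.13, chromosome 3, 36448923 to 36475894, minus strand) stood at 2.32, 2.56 and 3.32 CPM after mRNA knockdown, at 7.42, 6.97 and 5.25 CPM after circ knockdown, and at 8.56, 12.2 and 9.85 CPM in scramble. The 3 groups did not overlap, with the circSlc45a4 knockdown nearer to scramble. Anxa5 was at 26.7% of scramble after mRNA knockdown, a log2 fold change of -1.90 ± 0.21. After circ knockdown it fell by 0.65 on the log2 scale (95% interval -1.06 to -0.23, edgeR adjusted p = 0.0248). That call was lost without circ knockdown replicate 2 (-0.69, adjusted p = 0.0523) or 3 (-0.51, 0.0927), without scramble replicate 2 (-0.49, 0.136), and with Xist as a covariate (-0.19, 0.794), the last being the upper end of a range that began at 0.00658.

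Rasa4 (ENSMUSG00000004952.13, chromosome 5, 136083916 to 136111860, plus strand) stood at 0.502, 0.809 and 0.942 CPM after mRNA knockdown, at 4.23, 3.55 and 1.12 CPM after circ knockdown, and at 2.96, 2.85 and 3.98 CPM in scramble. It was the least read of the 10 after mRNA knockdown, with 18, 30 and 34 counts. Replicate 3 of the circSlc45a4 knockdown was close to the Slc45a4 mRNA knockdown, and its other replicates were within or above the scramble range. The log2 fold change was -2.12 ± 0.43 after mRNA knockdown. After circ knockdown it was -0.14 (95% interval -1.0 to 0.71, edgeR adjusted p = 0.820), without a call under any alternative (adjusted p 0.461 to 0.974).

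After circ knockdown, 6 of the 10 genes thus passed the test, 3 of them higher (Igsf11, Hs2st1, Polr2b) and 3 lower (Prokr2, Zfp580, Anxa5). Over all genes 27.1% passed in that comparison, 14.1% higher and 13.0% lower. The share among the 10 cannot be weighed against that background, because the scramble libraries that helped to choose the genes stand in this comparison too. A deviation in scramble moves both comparisons in the same direction. Libraries of the circ knockdown and scramble did not overlap for 7 of the 10, and for 43.9% of all genes. The median of the 10 log2 fold changes after circ knockdown was -0.19, beside -0.01 over all genes. After mRNA knockdown the median of the 10 was -1.55, and no library of any of the 10 overlapped scramble. Over all genes 18.0% were called there and 36.1% did not overlap. The values of the 10 in that comparison follow from how they were chosen, so nothing is read from them against these shares. The calls over all genes numbered 3200 with all libraries and 1760 without scramble replicate 2.

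**Figure D2:**
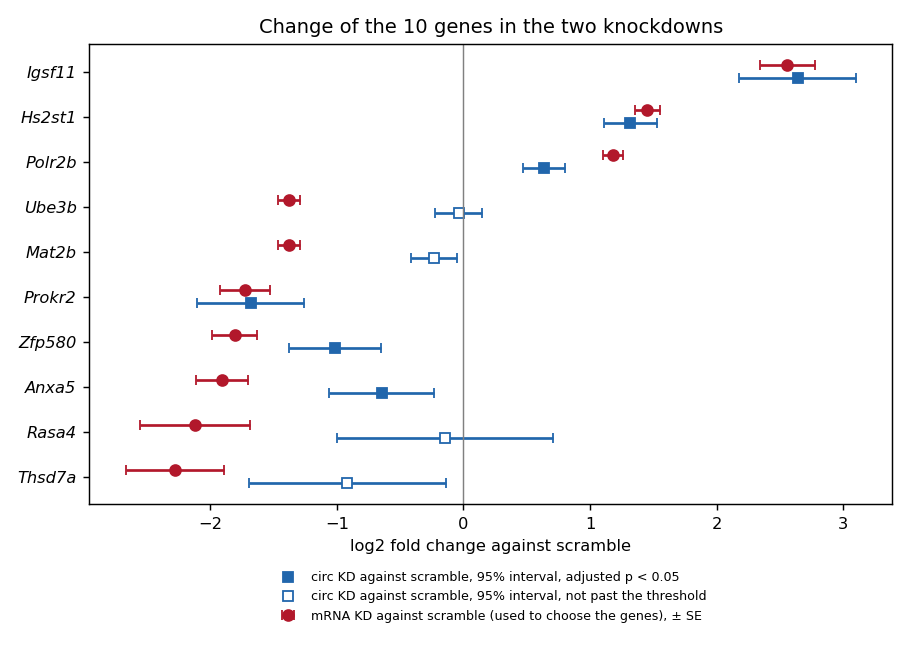
Log2 fold change against scramble (x axis) of each gene (y axis). Red circles with ± SE are the Slc45a4 mRNA knockdown, which chose the genes, and blue squares with 95% intervals are the circSlc45a4 knockdown, filled where the adjusted p is under 0.05. The markers of Igsf11, Hs2st1 and Prokr2 lie beside each other, and the pairs of Ube3b, Mat2b, Anxa5, Rasa4 and Thsd7a lie more than 1 apart.

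The knockdowns can also be set against each other without scramble, although the Slc45a4 mRNA knockdown libraries took part in the choice, so these differences carry no test. The log2 difference, Slc45a4 mRNA knockdown minus circSlc45a4 knockdown, was -0.08 ± 0.19 for Igsf11, -0.04 ± 0.20 for Prokr2 and 0.13 ± 0.09 for Hs2st1 (± SE). These 3 genes stood at nearly the same level in both. The difference was -1.34 ± 0.09 for Ube3b, -1.15 ± 0.09 for Mat2b, -1.26 ± 0.20 for Anxa5, -1.36 ± 0.39 for Thsd7a and -1.97 ± 0.43 for Rasa4. It was -0.79 ± 0.17 for Zfp580 and 0.54 ± 0.08 for Polr2b. The circSlc45a4 knockdown libraries of Zfp580 and Polr2b, like those of Mat2b and Anxa5, lay between the other groups.

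**Figure D3:**
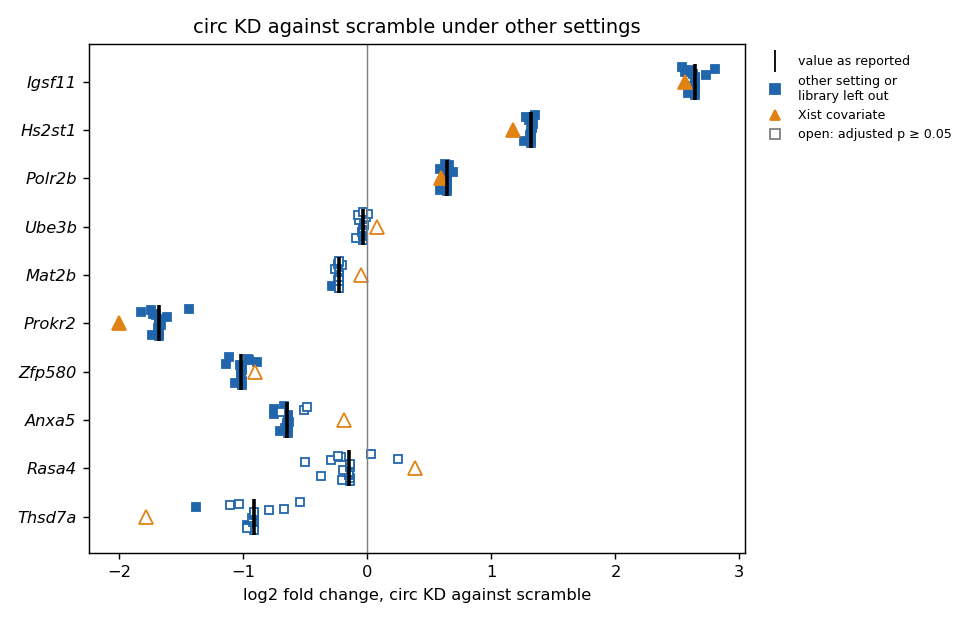
Log2 fold change after circ knockdown against scramble (x axis) for each gene (y axis) as reported (black bar), under other settings or with 1 library left out (blue squares), and with Xist as a covariate (orange triangles). Open symbols have an adjusted p of 0.05 or more. Igsf11, Hs2st1, Polr2b and Prokr2 are filled throughout, whereas Rasa4 spreads from -0.50 to 0.39 and Ube3b from -0.09 to 0.08, all open.

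Xist was near 0 in every scramble library and in mRNA knockdown replicate 3, and high in all other knockdown libraries. It was 264 to 635 CPM after circ knockdown and 0.0617 to 0.239 CPM in scramble. From these circ knockdown and scramble libraries alone, Xist level and knockdown cannot be told apart. In mRNA knockdown replicate 3, whose Xist level of 0.194 CPM was within the scramble range, 5 of the 10 genes (Ube3b, Igsf11, Zfp580, Polr2b and Hs2st1) lay between the 2 replicates with high Xist. Mat2b (24.5 CPM), Anxa5 (3.32) and Rasa4 (0.942) lay above both, towards scramble, and Thsd7a (0.775) and Prokr2 (5.04) below both, away from it. With Xist as a covariate the log2 fold changes after mRNA knockdown kept their sign for all 10 genes. They moved by more than the replicate SD for 4 of them, to -1.25 for Mat2b, -1.57 for Anxa5, -3.0 for Thsd7a and -1.74 for Rasa4. The genes were chosen for these changes, so the kept signs and the place of replicate 3 are description only. What part the sex of the embryos has in the changes was not tested.

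Per length of merged exons, the 10 genes spanned a wide range of levels, and their order differed between groups. After mRNA knockdown Polr2b led with 34.0 ± 1.63 CPM per kb, above 89.4% of the genes tested. Hs2st1 (9.94 ± 1.33) and Ube3b (9.52 ± 0.961) followed and did not differ beyond their spread, and then came Mat2b (4.47), Zfp580 (3.23), Igsf11 (2.71), Anxa5 (1.54) and Prokr2 (0.769 CPM per kb). Rasa4 (0.100 ± 0.0301) and Thsd7a (0.0940 ± 0.0327) were last and within each other's spread, above 4.39% and 4.05% of genes. After circ knockdown Ube3b (24.1 ± 0.994) and Polr2b (23.4 ± 1.75) led together, followed by Mat2b (9.91 ± 0.365) and Hs2st1 (9.05 ± 0.188), Zfp580 (5.61 ± 0.980), Anxa5 (3.69 ± 0.644), Igsf11 (2.87 ± 0.347) and Prokr2 (0.792 ± 0.0659), with Rasa4 (0.396 ± 0.219) and Thsd7a (0.241 ± 0.118) last and within each other's spread. In scramble Ube3b led with 24.7 ± 1.41 CPM per kb, then Polr2b (15 ± 0.289), with Mat2b (11.6 ± 0.102) and Zfp580 (11.3 ± 1.45) level with each other, Anxa5 (5.75 ± 1.05), Hs2st1 (3.63 ± 0.183) and Prokr2 (2.53 ± 0.693). Igsf11 was among the lowest there, at 0.457 ± 0.0797 CPM per kb, above 16.6% of genes, within the spread of Thsd7a (0.455 ± 0.181) and Rasa4 (0.436 ± 0.0832).

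The changes can be set beside those of the genes next door. The nearest tested gene on each side of each of the 10, and every tested gene that overlaps one, gave 22 neighbours. After mRNA knockdown 4 of the 22 passed the test (18.2%, near the 18.0% of all genes), 1 higher and 3 lower, at a median log2 fold change of -0.13. After circ knockdown 8 of 22 passed (36.4%, beside 27.1%), 3 higher and 5 lower, at a median of 0.09. The 4 were Exosc9, an exosome subunit before the start of Anxa5 (0.40, edgeR adjusted p = 0.0150), Dtx2, a ubiquitin ligase of the Notch pathway before Rasa4 (-0.51, adjusted p = 0.0132), Cds2, a phospholipid enzyme after Prokr2 (-0.25, adjusted p = 0.0432), and the gene model Gm45133 after Zfp580 (-0.71, adjusted p = 0.0463). None of these calls was firm, as edgeR's count was 0 without scramble replicate 2 (5 at an unadjusted p under 0.05), 1 without scramble replicate 3, and 2 without scramble replicate 1, circ knockdown replicate 3 or mRNA knockdown replicate 1 or 2. After circ knockdown the count was 5 without circ knockdown replicate 2 or scramble replicate 2. Ccdc106, which overlaps Zfp580, had log2 fold changes of -0.35 after mRNA knockdown (adjusted p = 0.437) and -1.39 after circ knockdown (adjusted p = 0.00337), the second lost with the Xist covariate.

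Of the 10, 3 start head to head with a neighbour. Ube3b starts 98 bases from Kctd10, Polr2b 62 bases from Noa1 and Hs2st1 122 bases from Selenof. Kctd10, an adaptor of cullin ligases, averaged 59.2 CPM after mRNA knockdown, 75.1 CPM after circ knockdown and 65.1 CPM in scramble. Its log2 fold changes were -0.14 after mRNA knockdown and 0.21 after circ knockdown (edgeR adjusted p = 0.301 and 0.0936). In the same order, Noa1, a mitochondrial GTPase, had -0.12 and -0.07 (adjusted p = 0.428 and 0.642), and Selenof, a selenoprotein of the endoplasmic reticulum, had 0.10 and 0.09 (adjusted p = 0.495 and 0.498). None of the 3 passed the edgeR test in either comparison. The genes that face them were chosen for a large change and the neighbours were not, so their sizes are not compared. The stretches between the starts are printed for Ube3b, which differed between the knockdowns, and Hs2st1, which was high in both. Each stretch lies between the start of a gene that changed and that of a neighbour that did not pass. Whether the stretches act as promoters of both genes was not tested. They are RefSeq promoter sequence (GRCm38.p6) on the strand of Ube3b or Hs2st1, chr5:114380509-114380606 and, up to the RefSeq start, chr3:144570217-144570303. Capitals mark GC boxes (GGGCGG) and the core of ETS sites (CCGGAAG), on either strand.
Ube3b: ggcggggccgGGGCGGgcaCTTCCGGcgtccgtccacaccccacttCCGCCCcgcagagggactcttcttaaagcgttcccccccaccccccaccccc
Hs2st1: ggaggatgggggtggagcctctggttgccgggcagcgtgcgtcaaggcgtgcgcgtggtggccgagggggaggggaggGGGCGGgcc
The Ube3b stretch held 2 GC boxes and 1 ETS core in 98 bases, and the Hs2st1 stretch 1 GC box in 87 bases.

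All 10 genes had a row in the RefSeq promoter table, which spans 300 bases from 250 before to 50 after a start. GC boxes stood in 7 of the 10 (35.7% of 32851 promoters), ETS cores in Mat2b, Ube3b and Prokr2 (8.86%), and CCAAT (either strand) in Mat2b, Thsd7a, Hs2st1 and Rasa4 (37.4%). No window of the 10 held TATAAA (13.6%). CpG pairs numbered 12 (Prokr2) to 32 (Hs2st1), beside a median of 7 over all promoters. These shares and this median cover promoters of genes whether or not they were read here, while all 10 genes passed the filter on low counts. They are therefore not a background for expressed genes, and nothing particular to the 10 is read from them. The windows of Mat2b, Igsf11 and Polr2b begin inside the gene bounds of GENCODE, so these rows belong to other annotated starts than the outermost.

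**Figure D4:**
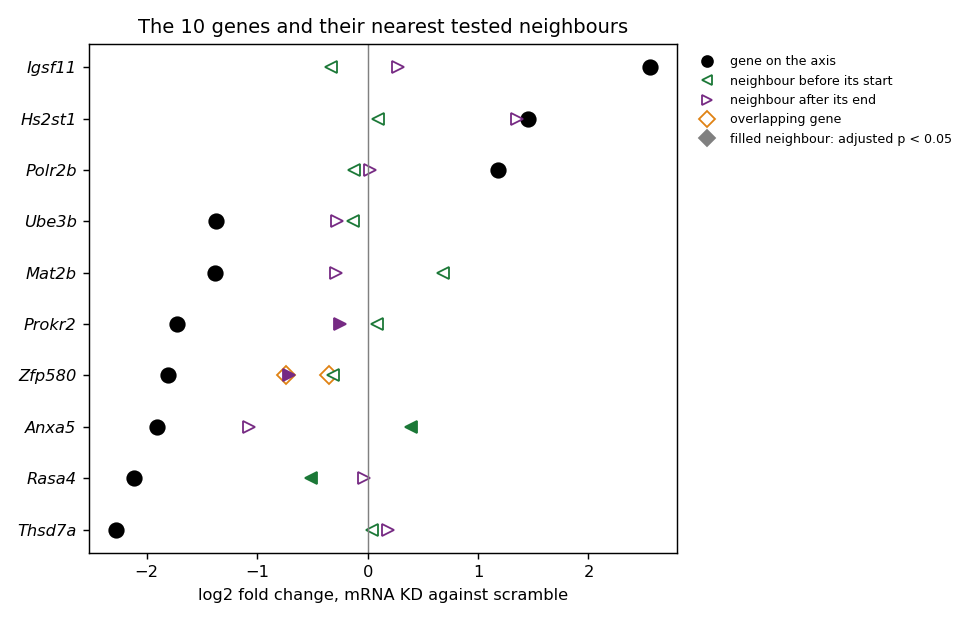
Log2 fold change after mRNA knockdown against scramble (x axis) for each of the 10 genes (black circles, y axis) and its nearest tested neighbours before its start, after its end or overlapping it (filled where the adjusted p is under 0.05). The neighbours lie between -1.08 and 1.35, mostly near 0.

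Partner genes of 9 of the 10 (none for Zfp580), taken from families and pathways, were read in the same fit. Of 144 partners 120 passed the filter. After mRNA knockdown 10 were higher and 11 lower (17.5%, beside 18.0% of all genes), at a median log2 fold change of -0.0036. After circ knockdown 32 were higher and 18 lower (41.7%, beside 27.1%), at a median of 0.07.

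The other 12 RNA polymerase II genes measured had log2 fold changes of -0.34 to 0.28 after mRNA knockdown, with a median of 0.03. Of these 1 passed the edgeR test, Polr2g (-0.34 ± 0.09, adjusted p = 0.01998), a stalk subunit, which was lower and lost its call without mRNA knockdown replicate 3 or scramble replicate 1 or 3 and with the Xist covariate. Polr2a, the catalytic partner of Polr2b, had 0.05 ± 0.09. After circ knockdown 1 was higher and 1 lower, namely Polr2a (0.35 ± 0.09, adjusted p = 0.0124, lost without circ knockdown replicate 1 or scramble replicate 1) and Polr2m (-0.48 ± 0.08, adjusted p = 9.62e-04), both lost with the Xist covariate.

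Of 29 heparan sulfate genes measured, 1 was higher and 1 lower after mRNA knockdown, at a median of 0.03. Hs3st5, a sulfotransferase for the last modification step, stood at 9.23 ± 0.368 CPM after mRNA knockdown and 4.30 ± 0.651 CPM in scramble (SD, n = 3 each), a rise of 1.11 ± 0.15 (SE, adjusted p = 2.51e-04), and Ext1, a chain polymerase, fell by 0.35 (lost with the Xist covariate). After circ knockdown 10 were higher and 3 lower. Hs3st5 rose by 1.46 ± 0.15, Glce, the epimerase that makes the iduronic acid Hs2st1 acts on, by 1.06 ± 0.11, Ndst1, which opens sulfation, by 0.68 ± 0.10, and Ndst4 by 3.94 ± 0.44 to 3.57 CPM, against 0.239 CPM in scramble. These 4 calls held under all 18 alternatives.

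Of 15 measured genes of the methionine cycle and polyamine entry, 1 was higher and 1 lower after mRNA knockdown. They were Amd1, which turns S-adenosylmethionine towards polyamines (0.38 ± 0.10, adjusted p = 0.0194), and Ahcyl2, a relative of the S-adenosylhomocysteine hydrolase (-0.74 ± 0.11, adjusted p = 5.48e-04). Amd1 lost its call without mRNA knockdown replicate 1 or scramble replicate 1 or 2 and with the Xist covariate. Mat2a, the catalytic partner of Mat2b, had -0.04 and did not pass. After circ knockdown 1 was higher and 4 lower, the lower ones being Ahcyl2 (-0.62), Ahcy (-0.41), Srm (-0.52) and Slc25a26, the mitochondrial carrier of S-adenosylmethionine (-1.11). These 4 calls were lost with the Xist covariate.

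Among 25 HECT ligases 2 were higher and 3 lower after mRNA knockdown. Ube3c rose by 0.55 ± 0.07 (adjusted p = 1.40e-04) and Herc1 by 0.56 ± 0.08, while Hectd3 and Arel1 fell by 0.41 and 0.34, calls lost with the Xist covariate. After circ knockdown 8 were higher and 1 lower, with Ube3c at 1.03 ± 0.07 (adjusted p = 8.24e-07) and Nedd4 at -0.58 ± 0.07 (adjusted p = 5.15e-05). Of 11 Ras GTPase-activating and SPRED genes 3 were higher and 3 lower after mRNA knockdown, and 4 and 3 after circ knockdown. Spred1, a brake on Ras signalling, rose in both (0.57 ± 0.10 and 0.60 ± 0.10), and Dab2ip fell after mRNA knockdown (-0.63 ± 0.11, lost with the Xist covariate).

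Prokineticin signalling held 4 measured partners, of which 1 was higher after mRNA knockdown (Gnaq) and 2 after circ knockdown (Gnaq and Gna11). Gna11 had log2 fold changes of -0.02 and 0.93 in that order. Gnaq, the G protein subunit through which prokineticin receptors raise calcium, stood at 151 CPM after mRNA knockdown and 226 CPM after circ knockdown, against 74.1 CPM in scramble. It rose by 1.03 ± 0.10 (adjusted p = 3.01e-05) and 1.61 ± 0.10 (adjusted p = 7.34e-07) while its receptor Prokr2 was lower. Among 6 annexins Anxa11 was lower in both knockdowns (-1.39 ± 0.36 and -1.37 ± 0.36, adjusted p = 0.0180 and 0.0127). Both calls were lost with the Xist covariate and without scramble replicate 2, and also without mRNA knockdown replicate 2 or scramble replicate 3 in the first, and circ knockdown replicate 1 in the second. After circ knockdown 3 annexins were higher and 2 lower, among them Anxa6 (0.88 ± 0.12, edgeR adjusted p = 2.03e-04), Anxa7 (0.82 ± 0.15) and Anxa4 (-2.28 ± 0.52). The calls of Anxa7 and Anxa4 were each lost under 1 of the 18 alternatives. Of 9 thrombospondin repeat genes 2 were higher and 1 lower after mRNA knockdown, with Rspo3, a Wnt enhancer, at 0.88 ± 0.18 (adjusted p = 0.00527, lost with the Xist covariate). After circ knockdown 2 were higher and 2 lower, among them Thsd7b, the closest relative of Thsd7a (-1.30 ± 0.26, adjusted p = 0.00218, lost with the Xist covariate). Of 9 adhesion molecules related to Igsf11, none was called after mRNA knockdown by edgeR or limma-voom and 1 by DESeq2, with 1 at an unadjusted edgeR p under 0.05 and a median of -0.21. Of the same 9, 1 was higher and 2 lower after circ knockdown.

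**Figure D5:**
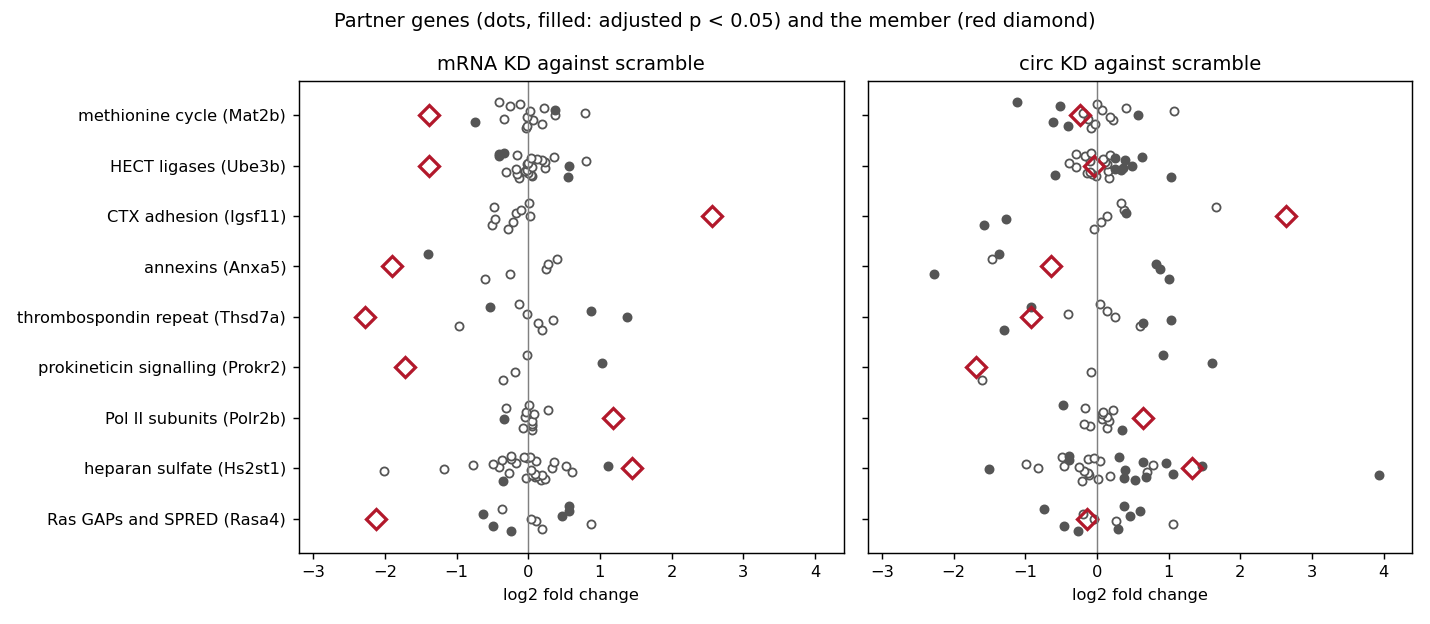
Log2 fold change against scramble (x axes) of the partner genes in 9 lists (y axis) after mRNA knockdown (left) and the circSlc45a4 knockdown (right). Dots are partners, filled where the adjusted p is under 0.05, and red diamonds are the member each list belongs to. The diamonds of the left panel are the values that chose the genes. RNA polymerase II dots lie between -0.34 and 0.28 there.

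As a description of likeness, each of the 10 was matched to the genes with the highest Pearson correlation of log2 CPM over the 9 libraries, which mostly follows the 3 group levels. Mat2b was most like Erlin2 (r = 0.996), at 35.2 CPM after mRNA knockdown, 74.3 CPM after circ knockdown and 91.7 CPM in scramble. Ube3b was most like Fbxo45 (0.996) and Prdm4 (0.995), the last at 40.2, 101 and 103 CPM in the same order of groups. Igsf11 was most like Hadhb (0.992), Hs2st1 like Ptges3 (0.995), Polr2b like Hnrnpul2 (0.994) and Prokr2 like Parvb (0.981). Hadhb stood at 54.9, 56.5 and 19.0 CPM in those groups and Ptges3 at 112, 104 and 35.8 CPM, both high in the 2 knockdowns. The matches of Anxa5 (Ppp1r3d, 0.984), Zfp580 (Ubtd1, 0.983), Rasa4 (Esrra, 0.965) and Thsd7a (Cd248, 0.958) were less close, and Cd248 was read at under 1 CPM on average in each group.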

How the data were processed

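The authors deposited raw read counts per gene for 53379 Ensembl IDs in 9 libraries, without normalization, and every column was used. Per the submitters' processing notes, bcl2fastq 2.17.1.14, STAR 2.4.2a, DESeq2 and build mm10 were involved, with no role or order given. No source used here names the counting program, strand setting, annotation release or filters. IDs were joined without version to GENCODE M21 (GRCm38), and 53274 had a symbol. Libraries ran from 21073174 to 45469298 counts, and a count of 0 would allow up to 3 counts (0.143 CPM in the shallowest library, counting error only). No member was at 0.

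Genes were kept by filterByExpr (minimum count 10 by group, 17760 genes), scaled by TMM and fitted over all 9 libraries with 1 term per group by the quasi-likelihood test of edgeR 4.0.16 (R 4.3.3), with Benjamini-Hochberg adjustment over all genes tested and a call at an adjusted p under 0.05. The common biological coefficient of variation was 13.9%. SE came from the fold change and its F statistic. Replicates of a group differed by more than sampling noise (chi-square per degree of freedom 7.46 to 39.8). The fit was tested on simulated data. Alternatives were RLE and upper-quartile factors, limma-voom 3.58.1, DESeq2 1.42.0, no filter, 1 CPM in 3 libraries, the 6 libraries compared, a replicate block, Xist as a covariate and each library left out. Members and lists were chosen with earlier results of these data known. The text names the members, Slc45a4, Xist, nearest neighbours, up to 4 called partners per list and comparison, and the 2 most alike genes of each member, though not every one of these. Mat2a was added after its value was seen.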

Additional observations from a re-analysis of the deposited data

How the results depend on the processing

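Over 18 alternatives, 4 of the 10 genes (Igsf11, Hs2st1, Polr2b, Prokr2) were called in the circSlc45a4 knockdown in every setting and 2 (Ube3b, Rasa4) in none, and the number called was 4 to 8 of 10. The changes in the Slc45a4 mRNA knockdown chose the genes, so their stability is a description and no support for them. Of 180 recomputed log2 fold changes in the Slc45a4 mRNA knockdown 176 stayed within the replicate SD. The other 4 were those with the Xist covariate given with the results. That covariate is low in all scramble libraries and 1 knockdown library, so by construction it leaves few contrasts. It took the calls over all genes to 738 in the Slc45a4 mRNA knockdown (3200 as reported) and 1199 in the circSlc45a4 knockdown (4814), and partner calls to 7 (21) and 19 (50). With it edgeR called 0 neighbours in both comparisons, with 2 after mRNA knockdown and 5 after circ knockdown at an unadjusted p under 0.05. Neighbour calls in the Slc45a4 mRNA knockdown, 4 as reported, were 2 with only the 6 libraries compared and 2 with the replicate block. With each library left out in turn they were 0 to 4, neighbour calls in the circSlc45a4 knockdown 5 to 11, partner calls 14 to 22 and 37 to 55, and calls over all genes 1760 to 3083 in the Slc45a4 mRNA knockdown and 3386 to 5548 in the circSlc45a4 knockdown. Same-numbered replicates deviated together only weakly (correlations -0.14 to 0.12 over genes), so the numbers were not taken as pairs. The replicate block gave 2713 calls in the Slc45a4 mRNA knockdown, 4412 in the circSlc45a4 knockdown and 6 of the 10 genes there. Of 65 called values of partners, neighbours and Slc45a4, 23 held in every setting, 42 were lost with Xist and 45 held without each library. Depth limits Rasa4 and Thsd7a most, with as few as 18 and 28 counts.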
